A study of Mus musculus with 20 samples.

Results

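Sister clonotypes were defined as T cell clones that held at least 1 cell of the Sostdc1 cluster and at least 1 cell of the activated follicular helper T (TFH) cluster in the same mouse. RNA and T cell receptor (TCR) barcodes were joined by library and cell barcode, and a clonotype was a mouse and a pair of complementarity-determining region 3 (CDR3) amino acid sequences. The rule found 613 sister clonotypes among 9796 clonotypes (6.26%), with 1540 Sostdc1 cells and 3774 activated cells, and each clonotype served as its own control for antigen receptor and mouse. The cells came from the spleens of 5 wild type (WT) bone marrow chimeras, immunized with NP-OVA in alum at week 6, and of 5 mixed 564Igi chimeras, all on the C57BL/6 background and all analysed at week 10 after reconstitution. In the 564Igi chimeras part of the transplanted marrow came from 564Igi mice, whose B cells carry an inserted self-reactive receptor (both chains) that binds ribonuclear complexes, and the rest was wild type, as were the hosts. The sequenced T cells were sorted as CD4 T cells positive for CD3, CD45.2, CXCR5 and PD-1 and negative for CD45.1. Whether a labelled sex is that of the host or of the marrow is not stated in the sources used here, and the WT mice differed from the 564Igi mice in immunization as well as in marrow. WT mice are numbered 11, 12, 14, 23 and 36 and 564Igi mice 13, 17, 21, 24 and 34, and values listed by mouse follow that order.

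TFH cells help germinal centre B cells to mature through CD40 ligand, interleukin 21 and interleukin 4, and their state is held by the transcription factor Bcl6, whereas follicular regulatory T (TFR) cells restrain the same reaction. Sostdc1 is a secreted antagonist of Wnt and BMP signals, and T cells that express it lie among the TFH cells of the follicle. Since the V, D and J segments of the TCR are joined at random in the thymus and bases are added at the joints, cells with the same CDR3 nucleotides are taken to descend from a common precursor.

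The nucleotide sequences of the CDR3s were used to check that sisters shared a precursor. The table lists at most 2 CDR3 sequences a cell, and the nucleotide pair could be matched to the amino acid pair in 4758 of 5314 sister cells (89.5%). Of 550 clonotypes with such cells on both sides, 547 (99.5%) had an identical nucleotide pair in a Sostdc1 cell and an activated cell, and 535 held a single version throughout. The largest clones of each group whose CDR3s could be aligned to their listed segments are printed, as the sequences that the Sostdc1 and activated sisters had in common. Sequences run 5′ to 3′, with the bases matched by neither the germline V nor the J segment in capitals. The WT clone joined TRAV4D-4 (chr14:52990866-52991389, GRCm38, plus strand) to TRAJ22 (chr14:54197248-54197307) and TRBV13-1 (chr6:41116007-41116468) to TRBJ2-7 (chr6:41543810-41543856), and held 11 Sostdc1, 96 activated and 19 TFR cells. The 564Igi clone joined TRAV8D-1 (chr14:52778447-52778995) to TRAJ49 (chr14:54168686-54168747) and TRBV1 (chr6:40891229-40891885) to TRBJ2-7, and held 9 Sostdc1, 78 activated and 5 TFR cells.
WT mouse 12, alpha: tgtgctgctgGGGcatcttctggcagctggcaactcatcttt
WT mouse 12, beta: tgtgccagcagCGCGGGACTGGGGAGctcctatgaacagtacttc
564Igi mouse 17, alpha: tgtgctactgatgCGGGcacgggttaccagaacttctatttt
564Igi mouse 17, beta: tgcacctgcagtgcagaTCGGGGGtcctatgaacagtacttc

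The segments of that WT clone recurred in other mice. The combination TRAV4D-4, TRAJ22, TRBV13-1 and TRBJ2-7, singled out after its values were seen, was found in 13 clonotypes of 7 mice (4 WT and 3 564Igi), and 6 of these were sister clonotypes, in 4 mice. No other of the 557 combinations in sister clonotypes was in as many mice, and only 2 combinations were in sister clonotypes of 2 or more mice. The 6 sister clonotypes held 21 Sostdc1, 146 activated and 36 TFR cells, and every one of them also held TFR cells. Their beta sequences, shown because they share a frame and length but not their bases, were all different.
WT mouse 12, larger clone: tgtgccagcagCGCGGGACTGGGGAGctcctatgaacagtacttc
WT mouse 12, smaller clone: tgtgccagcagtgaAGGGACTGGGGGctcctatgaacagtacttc
WT mouse 36: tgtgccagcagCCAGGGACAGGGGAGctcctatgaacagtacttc
564Igi mouse 21: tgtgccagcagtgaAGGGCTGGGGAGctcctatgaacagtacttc
564Igi mouse 24, larger clone: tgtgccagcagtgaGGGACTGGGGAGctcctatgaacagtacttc
564Igi mouse 24, smaller clone: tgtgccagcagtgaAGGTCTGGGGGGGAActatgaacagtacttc

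The clone of mouse 21 (4 Sostdc1, 4 activated and 3 TFR cells) and the larger clone of mouse 24 (2, 26 and 9 cells) coded for the same CDR3 amino acids and were the only sister CDR3 pair found in 2 mice. Counted from 1 at the 5′ end of the CDR3, the sequence of mouse 24 differed from that of mouse 21 by C9T in the alpha chain and by A15G and G18A in the beta chain, so these were separate rearrangements. The sequence of the smaller clone of mouse 12 was read in 1 activated cell, since the other cells of that clone listed a pair that could not be matched. Near-identical duplicates of alpha V segments exist, so the name TRAV4D-4 is uncertain. Over all sister clonotypes, no single beta V segment differed in use from the clonotypes found in only 1 of the 2 clusters. The lowest exact sign-flip p among 17 segments was 0.0156 for TRBV26 (7.30% ± 5.36 against 3.67% ± 1.41 of clonotypes, SD, n = 10 mice, higher in 9 of 10), with an adjusted p of 0.199.

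Most sister clonotypes were small, and most of their cells were activated. The median sister clonotype had 4 cells over both clusters and the largest had 135, and 140 of the 613 consisted of 1 Sostdc1 and 1 activated cell. Clonotypes with 10 or more cells, 140 in number, held 63.6% of the cells. Activated cells outnumbered Sostdc1 cells in 372 clonotypes, the reverse held in 71, and 170 had equal numbers. TFR cells were present in 214 of the 613. The mice contributed 52, 36, 39, 79 and 60 sister clonotypes (WT) and 112, 52, 85, 32 and 66 (564Igi). Of 28192 cells with RNA, 21405 (75.9%) had a TCR. The libraries of WT mouse 36 and 564Igi mouse 34 were numbered apart from the rest and had a TCR for fewer of their cells (1936 of 4030 and 1652 of 2924), so the gene comparisons, the share of Sostdc1 cells with an activated sister, the TCR UMI difference between sisters and the comparison with TFR sisters were also computed without both. Libraries of different mice had cell barcodes in common (491 of 27695 distinct barcodes), but none of the 292 such barcodes with a TCR carried the same clonotype in both libraries.

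Sostdc1 cells were in large part members of clones that also held activated cells, whereas the reverse was less complete. The 2 shares count the same clones over unlike totals (2178 Sostdc1 and 9053 activated cells with a TCR), and the part of cluster size was not tested. The share of Sostdc1 cells with an activated sister was 76.8, 69.6, 71.9, 74.4 and 74.7% in WT mice and 70.1, 65.3, 72.1, 64.1 and 59.7% in 564Igi mice. The 564Igi mice 13 and 21 lay within the WT range and the other 3 below it, and the means were 73.5% ± 2.76 and 66.3% ± 4.93 (SD, n = 5 mice each). The difference of -7.23 percentage points gave p = 0.0397 in a two-sided exact permutation test over mice and 0.0661 after adjustment over 5 such tests, and counted over clonotypes in place of cells it was -1.85 points (exact permutation p = 0.508). The share of activated cells with a Sostdc1 sister was 36.8, 54.0, 27.1, 49.6 and 48.1% in WT mice and 43.4, 34.1, 48.3, 26.2 and 38.2% in 564Igi mice. These groups overlapped over most of their range (43.1% ± 10.98 and 38.0% ± 8.52, SD, n = 5 each, exact permutation p = 0.437, adjusted p = 0.437).

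Clones of Sostdc1 cells reached the activated cluster more often than the TFR cluster. Of 1189 clonotypes with a Sostdc1 cell, 613 (51.6%) had an activated sister and 304 (25.6%) had a TFR sister. The share with an activated sister exceeded the share with a TFR sister by 25.4 percentage points (SD 11.7) and did so in 9 of 10 mice (two-sided exact sign-flip p = 0.0039, adjusted p = 0.00977). Mouse 12 was the exception, with 51.4% of its Sostdc1 clonotypes joined to activated cells and 54.3% to TFR cells. In all, 4379 clonotypes held activated and 4760 held TFR cells, but the numbers differed by mouse (266 and 481 in mouse 12, 580 and 441 in mouse 17), and their part in the result was not tested. This comparison was added after the data were seen.

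**Figure D1:**
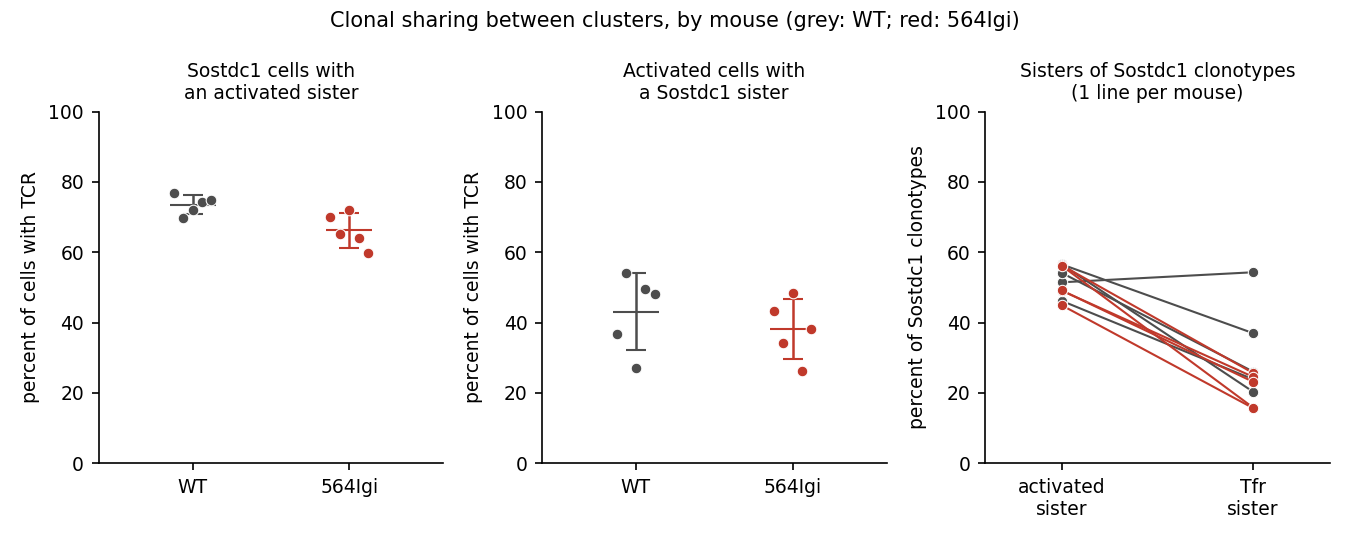
Percent of Sostdc1 cells with an activated sister, percent of activated cells with a Sostdc1 sister (both of cells with a TCR; points are mice, bars the mean and SD of 5 mice) and percent of Sostdc1 clonotypes with an activated or a TFR sister (lines are mice). The 564Igi mice reach down to 59.7% in the first panel, and 9 of 10 lines fall in the last.

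Sostdc1 itself separated the sisters almost completely. It lies on chr12:36314139-36318452 (GRCm38, plus strand). Every cell of the Sostdc1 cluster had at least 3 corrected counts of it (median 13, 2803 cells), whereas the median activated cell had 0 and 8.91% of 11953 activated cells had 3 or more. In the sister cells the mean level was 3.77 ± 0.12 log2(count + 1) on the Sostdc1 side and 0.51 ± 0.07 on the activated side (SD, n = 10 mice). The difference within clonotypes was 3.32, 3.13, 3.02, 3.33 and 3.40 in WT mice and 3.36, 3.34, 3.36, 3.16 and 3.17 in 564Igi mice, and all 564Igi values lay within the WT range. Among 61 clonotypes with at least 5 cells on each side, the difference was above 0 in all 61 (median 3.45, range 2.02 to 4.29). Since the clusters were made from the expression of these same cells, this and the gene differences that follow describe how the named clusters differ within a clone and carry no test.

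Besides Sostdc1, the sisters differed by small amounts in many genes. Of 9792 genes, 25 had an absolute mean difference above 0.2 and an adjusted p below 0.01 in limma, 13 higher in the Sostdc1 sisters (0.133%) and 12 lower (0.123%), or 0.255% in all, from which nothing is read since the clusters used these genes. The sign was the same in all 10 mice for 148 genes (1.51%). Differences are given as Sostdc1 minus activated sisters on the scale of log2(corrected count + 1), averaged over the clonotypes of a mouse and then over 10 mice, with the SD over mice.

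Pdcd1, Tnfsf8, Cd82 and Stat4 were among the genes higher in the Sostdc1 sisters. Pdcd1, which encodes the inhibitory receptor PD-1 used in the sort, was higher in each mouse, by 0.55, 0.33, 0.30, 0.29 and 0.35 in WT and 0.24, 0.34, 0.29, 0.04 and 0.19 in 564Igi mice (mean 0.29 ± 0.13). The WT values lay above most of the 564Igi values, with mouse 11 highest and mouse 24 lowest. Tnfsf8, the ligand of CD30, was higher by 0.21 ± 0.16 in all 10 mice, although the activated cluster is known by this gene, and a count was present in 77.0% ± 5.96 of Sostdc1 cells against 63.5% ± 5.205 of activated cells (SD, n = 10). Cd82, a tetraspanin, was higher by 0.24 ± 0.14, and Stat4, the transcription factor activated by interleukin 12, by 0.22 ± 0.11. Of 25 tested genes of the follicular helper programme, 23 had a mean above 0 and 2 passed the size and p limits (Pdcd1 and Stat4), with a median of 0.08 against 0.01 for all genes, of which 63.9% had a mean above 0. With at least 2 cells on each side of a clonotype 17 genes passed, and Pdcd1, Hif1a, Ly6a, S100a10, Tnfsf8, Cd82, Art2b and Tnfaip8 were among those that no longer did. With limma's default trend 2 passed and Pdcd1 and Stat4 did not. Cd200, an inhibitory ligand, and Cd40lg, the CD40 ligand, did not pass but were above 0 in all 10 mice (0.19 ± 0.09 and 0.15 ± 0.04). Cxcr5, Icos and Bcl6 differed less, by 0.08 ± 0.07, 0.06 ± 0.07 and 0.04 ± 0.06.

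Hif1a, the hypoxia-inducible transcription factor, was higher by 0.55, 0.30, 0.11, 0.29 and 0.31 in WT and 0.45, 0.39, 0.36, 0.29 and 0.47 in 564Igi mice (0.35 ± 0.12). Mouse 14 had the smallest value and mouse 11 the largest, so the WT range spanned that of the 564Igi mice. Tbc1d4, a regulator of glucose transporter traffic, was higher by 0.57, 0.55, 0.21, 0.43 and 0.32 in WT and 0.27, 0.19, 0.10, 0.01 and 0.13 in 564Igi mice (0.28 ± 0.19), with only WT mouse 14 inside the 564Igi range. Of 15 glycolytic enzymes, 14 had a mean above 0 (median 0.04, with 63.9% of all genes above 0) and none passed the limits. The largest of them were Pgam1 (0.18 ± 0.08) and Tpi1 (0.16 ± 0.10), both above 0 in all 10 mice. Eea1, which tethers early endosomes, was higher by 0.20 ± 0.15 in 9 mice. Dap, Art2b, Tnfaip8 and Marcksl1 completed the named genes, with means from 0.25 to 0.27, and in 61 large clonotypes Dap was higher in 49 and Hif1a in 47.

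Of 25 tested genes of memory, exit and homing, 22 had a mean below 0 and 5 passed the limits, all lower in the Sostdc1 sisters, with a median of -0.14. Of all genes 36.1% had a mean not above 0 and 0.123% passed in the lower direction, and the counts are a description, as the clusters used these genes. The summed corrected count of the list was 28.9 in the Sostdc1 and 39.5 in the activated sisters and was lower in the Sostdc1 sisters of all 10 mice. The calcium-binding protein S100a6 had the largest difference, -0.56, -0.40, -0.60, -0.71 and -0.48 in WT and -0.40, -0.15, -0.36, -0.23 and -0.18 in 564Igi mice (-0.41 ± 0.18). All WT values were below all 564Igi values, although WT mouse 12 and 564Igi mouse 13 nearly touched. Crip1 (-0.35 ± 0.10) and S100a10 (-0.32 ± 0.13) followed.

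Klf2, the transcription factor that keeps T cells recirculating and is low in TFH cells, was lower in the Sostdc1 sisters by -0.39, -0.35, -0.21, -0.42 and -0.22 in WT and -0.20, -0.34, -0.27, -0.15 and -0.19 in 564Igi mice (-0.27 ± 0.09). It had a count in 14.5% of Sostdc1 and 26.8% of activated sister cells, and was lower in 50 and higher in 7 of the 61 large clonotypes. Itga4, the alpha 4 integrin chain, was lower by -0.26 ± 0.13, from -0.0003 in WT mouse 36 to -0.48 in 564Igi mouse 24, and was lower in 53 of the 61. Thy1 (-0.29 ± 0.13), Ly6a, which encodes Sca-1 (-0.28 ± 0.13), the non-coding RNA AW112010 (-0.29 ± 0.09), the GTPase Gimap4 (-0.26 ± 0.15) and the membrane-binding Anxa6 (-0.26 ± 0.10) were each lower in all 10 mice. Nkg7, of cytotoxic granules, was low on both sides (0.07 and 0.23) with a difference of -0.16 ± 0.07, below 0 in all 10 mice. Of 11 effector and cytotoxic genes, 10 had a mean below 0 (with 36.1% of all genes not above 0) and none passed the limits.

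**Figure D2:**
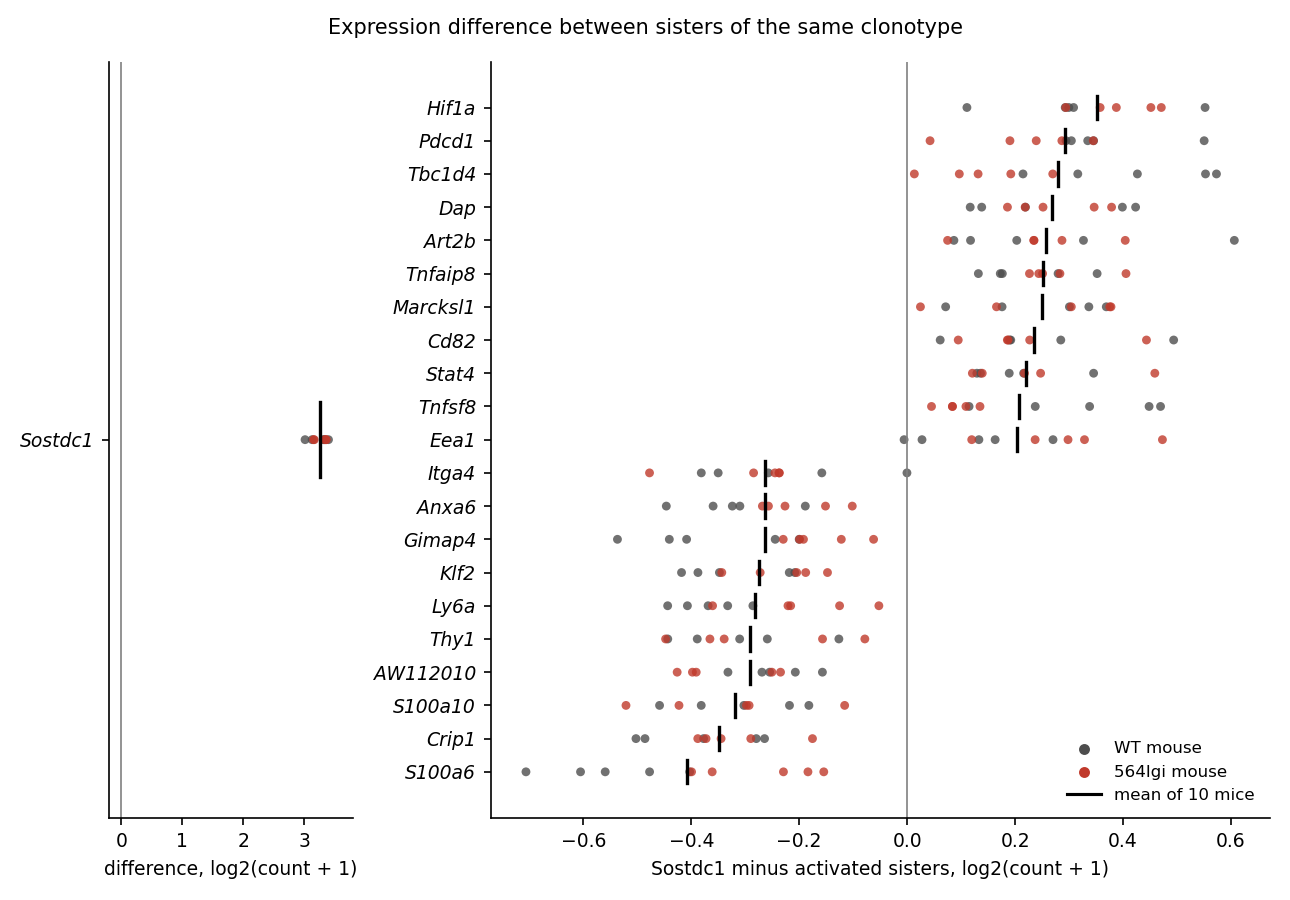
Difference between Sostdc1 and activated sisters of the same clonotype on the scale of log2(corrected count + 1), for Sostdc1 (left) and the other named genes past the limits (right). Points are mice and black marks are means of 10 mice, and Sostdc1 lies near 3.26 whereas the others lie between -0.41 and 0.35.

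Few genes of the other lists passed. Of all genes 63.9% had a mean above 0 and 0.255% passed. Of 22 genes that respond to TCR signals, 9 had a mean above 0 and none passed, with Nfkbia at -0.17 ± 0.14 and Cd69 at 0.05 ± 0.07. Of 19 genes of the TCR complex and its proximal signalling, 15 had a mean above 0 (median 0.07), and only Thy1 passed, in the lower direction. Besides Sostdc1, 22 genes of the Wnt and BMP pathway were tested and none passed, with Tcf7 at 0.09 ± 0.14 and Cxxc5 at 0.08 ± 0.08. Of 14 cytokine and TNF ligand genes Tnfsf8 passed, a call lost without any 1 of 4 WT mice (11, 12, 14 or 36) and without mice 34 and 36, while Spp1 and Csf1 were at 0.13 ± 0.10 and 0.12 ± 0.08. Of 8 inhibitory receptors Pdcd1 passed, of 19 interferon-stimulated genes Ly6a passed (lower), and of 16 regulatory T cell genes and 10 heat shock genes none passed.

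The cells matched their labels as follicular T cells. Cd3e had a count in 99.8% and 99.7% of Sostdc1 and activated sister cells, Cd4 in 79.3% and 76.5%, Pdcd1 in 89.9% and 83.6%, and Cxcr5 in 47.9% and 46.0%. Foxp3, which defines regulatory T cells, had a count in 2.59% and 2.86%, although Ikzf2 had one in 63.9% and 66.7%. The B cell markers summed to 0.352 and 0.299 corrected counts a cell, led by Cd74, with Ms4a1 in 0.0444% and 0.112% of cells. The 16 myeloid and erythroid markers summed to 2.42 and 1.68, led by Apoe, and were higher in the Sostdc1 sisters of 8 mice. The defining myeloid genes Csf1r and Lyz2 were at 0 and 0.176% of Sostdc1 sister cells. The part of these markers in the differences was not tested.

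The TCR libraries gave a readout that the clusters had not used. Sostdc1 sisters carried more TCR UMIs (unique molecular identifiers, which count captured molecules) than their activated sisters in all 10 mice. Mean log2(UMIs + 1) on the Sostdc1 side was 4.56, 4.62, 4.65, 4.77 and 4.86 in WT and 4.68, 4.67, 4.43, 3.92 and 4.91 in 564Igi mice. On the activated side it was 4.34, 4.28, 4.62, 4.50 and 4.76 in WT and 4.52, 4.61, 4.34, 3.71 and 4.81 in 564Igi mice. Mouse 24 was lowest on both sides, and each mouse was higher on the Sostdc1 side. The within-clonotype difference was 0.16 ± 0.10 (SD, n = 10 mice, two-sided exact sign-flip p = 0.00195, the smallest this design allows, adjusted p = 0.00977). It ranged from 0.03 in WT mouse 14 to 0.35 in WT mouse 12. Between Sostdc1 and activated cells of clonotypes found in only 1 of the clusters, averaged over cells, it was 0.06 ± 0.06 and above 0 in 9 of 10 mice, from -0.0085 in WT mouse 11 to 0.18 in WT mouse 36, and whether this differed from the sister value was not tested.

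RNA UMIs per cell were also higher in the Sostdc1 sisters, in 8 of 10 mice, and the number of genes detected and the mitochondrial percentage were higher in all 10. The ribosomal percentages were lower in the Sostdc1 sisters of most mice. Both subunits were higher in WT mouse 23, and the small subunit was also higher in 564Igi mouse 24. For the small subunit the difference was 0.20 points in WT mouse 23, 0.035 in 564Igi mouse 24 and -0.59 in WT mouse 12. The part of these shifts in the gene differences was not tested. With TCR UMIs divided by RNA UMIs the difference was 0.11 on the log2 scale (exact sign-flip p = 0.00586) and was above 0 in 9 of 10 mice, all but 564Igi mouse 21. The TCR difference was 0.19 ± 0.13 in WT and 0.12 ± 0.06 in 564Igi mice, which differed by -0.07 (exact permutation p = 0.302, n = 5 each, adjusted p = 0.377). The part of RNA content in the TCR difference was tested only by this division.

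**Figure D3:**
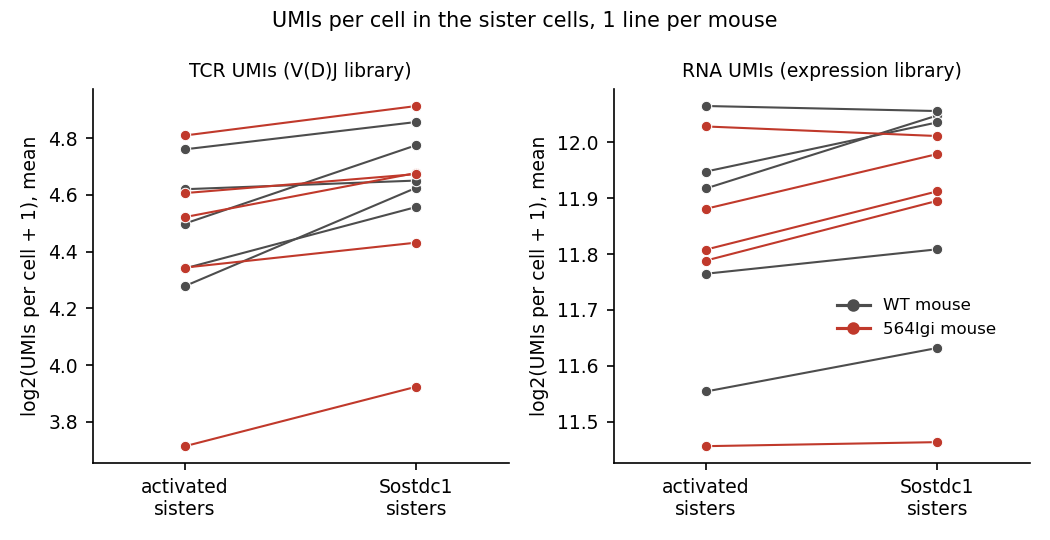
Mean log2(UMIs per cell + 1) of the TCR library (left) and of the RNA library (right) in activated and Sostdc1 sisters, with 1 line per mouse. All 10 lines rise in the left panel and 8 of 10 in the right.

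No gene passed the test for a change in the distance between sisters with the condition of the mouse. Of 9792 genes, none (0%) passed the limits for 564Igi against WT in the sister difference in limma, in all alternatives run. An unadjusted p below 0.05 was found for 477 genes, a number near that expected with no difference. The values of the 2 groups did not overlap for 0.715% of genes. The 3 lowest p belonged to Ubac2 (564Igi minus WT -0.24, SE 0.05, adjusted p = 0.361), Gm45716 (-0.19, SE 0.04, adjusted p = 0.361) and Wbp4 (-0.15, SE 0.04, adjusted p = 0.98). For S100a6 the difference was 0.28 (SE 0.09), for Tbc1d4 -0.28 (SE 0.09) and for Tnfsf8 -0.23 (SE 0.08), each with an adjusted p of 0.98 in limma. For Sostdc1 it was 0.04 (SE 0.09).

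Within the sisters of 1 cluster, the long non-coding RNA Gm42031 separated the conditions. It lies on chr8:85125872-85132289 (GRCm38, minus strand) and overlaps no other gene of the GENCODE vM21 annotation used here. In Sostdc1 sisters its level was 0.39, 0.49, 0.76, 0.54 and 0.58 in WT and 2.41, 2.05, 2.11, 2.90 and 3.30 in 564Igi mice. In activated sisters it was 0.28, 0.37, 0.62, 0.44 and 0.57 in WT and 2.26, 1.72, 1.94, 2.95 and 3.14 in 564Igi mice. On both sides every 564Igi mouse was above every WT mouse. The 564Igi minus WT difference was 2.002 (SE 0.15, adjusted p = 6.94e-11, limma) in Sostdc1 sisters, where 2 of 9792 genes passed (0.0204%), and 1.95 (SE 0.17, adjusted p = 3.95e-08, limma) in activated sisters, where it was the only gene to pass (0.0102%). A count was present in 34.5 to 98.8% of the Sostdc1 cells of a mouse and in 29.5 to 97.9% of its TFR cells, so the gene was not particular to the sister cells. Without the trend of variance on level no gene passed on either side (adjusted p of Gm42031 in limma 0.0373 and 0.196, with 492 and 420 genes at an unadjusted p below 0.05), nor without the filter on low genes (0.0213 and 0.102, with 627 and 584 genes), and without WT mouse 14 there were 7 in activated sisters.

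Gm30211 was the other gene past the limits in Sostdc1 sisters. Its level there was 0.07, 0.31, 0.14, 0.27 and 0.21 in WT and 0.59, 0.43, 0.59, 0.36 and 0.44 in 564Igi mice, without overlap (0.28, SE 0.05, adjusted p = 0.00759, limma). In activated sisters the difference was 0.19 (SE 0.04, adjusted p = 0.119), and the groups did not overlap by a narrow margin. The call in Sostdc1 sisters was lost without any 1 of 7 mice, without mice 34 and 36 (adjusted p = 0.0326, limma) and in 5 other settings, while the direction held. The gene lies on chr6:70719074-70740554 (plus strand) and spans, on the same strand, the immunoglobulin kappa joining segments from Igkj1 (chr6:70722562-70722599) to Igkj5 and the constant gene Igkc (chr6:70726435-70726966), so its reads and those of the kappa locus cannot be told apart here. Igkc itself was not measured, since the authors removed immunoglobulin genes, and the 5 tested B cell markers had medians of 0.01 for 564Igi minus WT on both sides. Values of the 2 groups did not overlap for 0.868% of genes in Sostdc1 sisters and 0.766% in activated sisters.

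For Ly6a the 564Igi minus WT difference was 0.46 (SE 0.12) in Sostdc1 and 0.28 (SE 0.13) in activated sisters, and neither passed (adjusted p = 0.563 and 0.995, limma). Of 15 glycolytic enzymes 14 had a mean above 0 in Sostdc1 sisters (median 0.18 against -0.01 for all genes, with 3919 of 9792 above 0) and 13 in activated sisters (median 0.11, with 4015 of 9792 above 0), and none passed. Tpi1, a triosephosphate isomerase, had the lowest p of them in Sostdc1 sisters (0.38, SE 0.08, adjusted p = 0.199, limma).

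**Figure D4:**
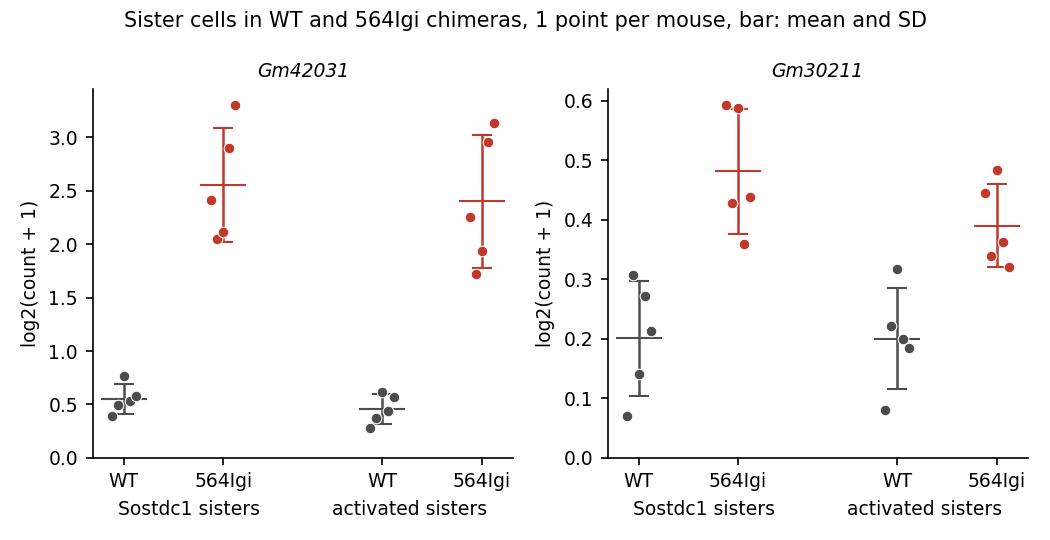
Level of Gm42031 and Gm30211, in log2(corrected count + 1), in Sostdc1 and activated sisters of WT and 564Igi chimeras. Points are mice and bars the mean and SD of 5 mice, and the Gm42031 levels of 564Igi mice all lie above 1.7 whereas those of WT mice lie below 0.8.

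For a small set of genes the clusters differed by another amount when the clone was held fixed. The sister difference was set against the difference between Sostdc1 and activated cells of clonotypes found in only 1 of the 2 clusters (638 and 5279 cells). This was done within each mouse, so that the cluster names are used alike on both sides. The cells were not matched in clonotype size. The weighting also differed, as sister values were averaged over clonotypes and unrelated values over cells. For 13 of 9792 genes (0.133%) the 2 differences were apart by more than 0.2 with an adjusted p below 0.01 in limma, 4 of them higher (0.0408%) and 9 lower (0.0919%). With both sides averaged over cells 13 passed, but Thy1, Rflnb and Eea1 of the first 13 did not. Without the trend of variance on level, with limma's default trend, or without the filter on low genes, none passed (806, 779 and 1031 genes at an unadjusted p below 0.05). Without mice 34 and 36 7 passed, and without WT mouse 23 3 did.

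Of 8 inhibitory receptors, 3 passed, all lower in the sister difference than in the unrelated difference. Pdcd1 differed by 0.62 ± 0.20 between unrelated cells and 0.29 ± 0.13 between sisters, a change of -0.33 (SE 0.07, adjusted p = 0.00734), and was smaller between sisters in all 10 mice. The call was lost without any 1 of 8 mice, without mice 34 and 36, and when only cells with 1 alpha and 1 beta chain or sisters with the same CDR3 nucleotides were used. Lag3, an inhibitory receptor for MHC class II, was at 0.23 ± 0.24 between unrelated cells and -0.08 ± 0.09 between sisters (-0.31, SE 0.05, adjusted p = 0.000758). Tigit (0.42 and 0.09, adjusted p = 0.00734), the costimulatory receptor gene Tnfrsf4 (0.30 and -0.01, adjusted p = 0.000644) and Ikzf2, which encodes the transcription factor Helios (0.32 and -0.07, adjusted p = 0.000758), also passed, although Tigit lost its call without any 1 of 7 mice and in the same chain and nucleotide settings, Tnfrsf4 without mice 34 and 36, and Ikzf2 without WT mouse 11 or 23. The mean change of Tigit was -0.55 in WT and -0.11 in 564Igi mice and that of Ikzf2 -0.61 and -0.17, and whether these groups differed was not tested. The change in Ikzf2 was below 0 in all 10 mice, from -0.05 in 564Igi mouse 24 to -0.97 in WT mouse 11.

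Of 16 tested genes of the regulatory T cell list, 13 had a change below 0 and 3 passed (Tigit, Tnfrsf4 and Ikzf2), with a median of -0.11 against 0.0018 for all genes, of which 46.1% had a change not above 0. The summed corrected count of the list, led by Izumo1r, was 16.4 ± 2.91 in Sostdc1 cells and 12.5 ± 1.07 in activated cells without a sister in the other cluster (SD, n = 10 mice), the former higher in all 10 mice, from 13.1 in 564Igi mouse 34 to 21.98 in WT mouse 12. Between sisters it was 13.5 ± 1.29 and 13.9 ± 0.84. Foxp3, the defining gene, had a count in 8.33% ± 5.89 and 9.67% ± 2.80 of these unrelated Sostdc1 and activated cells, above the shares in sister cells. The part of regulatory T cells in the result was not tested.

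In the other direction, Thy1 was lower in Sostdc1 cells by -0.62 ± 0.20 between unrelated cells and by -0.29 ± 0.13 between sisters (0.33, SE 0.05, adjusted p = 0.000587, in all 10 mice). Its call was lost with cells pooled over clonotypes. The memory-associated genes Ms4a4b (-0.60 and -0.20, adjusted p = 0.000587) and Vim (-0.39 and -0.15, adjusted p = 0.0046) and the actin-binding Rflnb (-0.20 and 0.02, adjusted p = 0.000587) followed the same order. However, Vim lost its call without any 1 of 4 mice and without mice 34 and 36. Rflnb lost its call without WT mouse 12 or 23, with cells pooled over clonotypes and with log2(mean count + 0.1). Lag3 lost its call without WT mouse 23. Sostdc1 differed by 3.45 ± 0.15 between unrelated cells and 3.26 ± 0.13 between sisters, which did not pass (adjusted p = 0.28).

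The activated sisters were then compared with other activated cells, an addition made after the data were seen. Both sides were limited to clonotypes with at least 2 activated cells, and the comparison shares the activated sister cells with the previous one. Of 9792 genes 10 passed (0.102%), 9 of them higher in the activated sisters (0.0919%) and 1 lower (0.0102%), and the sign was the same in all 10 mice for 1.01% of genes. With limma's default trend none passed (1086 genes at an unadjusted p below 0.05). With no trend 6 did, and of the 10 genes Pdcd1, Lag3, Srgn and Cd3e did not. Without the filter on low genes Eea1 alone passed.

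Pdcd1 was higher in activated sisters, at 1.39, 1.70, 2.02, 1.57 and 1.77 in WT and 1.96, 1.76, 1.64, 1.78 and 1.85 in 564Igi mice, than in other expanded activated cells, at 0.99, 1.51, 1.66, 1.07 and 1.24 in WT and 1.66, 1.51, 1.59, 1.36 and 1.84 in 564Igi mice. The activated sisters were higher in each mouse, with the smallest gap in 564Igi mouse 34 and the largest in WT mouse 36 (0.30 ± 0.18, adjusted p = 7.21e-05, limma). Eea1 (0.28 ± 0.09, adjusted p = 7.21e-06), Tbc1d4 (0.26 ± 0.12, adjusted p = 7.13e-05), Hif1a (0.26 ± 0.12, adjusted p = 7.21e-05) and Tnfsf8 (0.23 ± 0.09, adjusted p = 7.21e-05) were higher in all 10 mice, and the mean of each was higher still in the Sostdc1 sisters. Lag3 was higher by 0.26 ± 0.17 in 9 mice, all but 564Igi mouse 24 (adjusted p = 4.79e-05). Srgn, a granule proteoglycan, and Cd3e, a chain of the TCR complex, were higher by 0.23 ± 0.14 and 0.21 ± 0.12 (adjusted p = 0.000315 and 0.000301). Cd3e lost its call without WT mouse 12, WT mouse 23 or 564Igi mouse 17, and Srgn with log2(mean count + 0.1).

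Thy1 was the gene lower in activated sisters, by -0.25 ± 0.11 in all 10 mice (adjusted p = 3.15e-06). Klf2 was at -0.07 ± 0.12 and did not pass (adjusted p = 0.163), nor did Ikzf2 (0.18 ± 0.18, adjusted p = 0.011), Ly6a (0.18 ± 0.16, adjusted p = 0.0172) or S100a6 (0.19 ± 0.33, adjusted p = 0.132). Of all genes 46.4% had a mean above 0 in this comparison, with a median of -0.001. Of 25 genes of the follicular helper programme, 18 had a mean above 0 and Pdcd1 passed. Of the 8 inhibitory receptors 7 had a mean above 0, and Pdcd1 and Lag3 passed. Of 16 regulatory T cell genes 13 had a mean above 0 (median 0.07) and none passed. The summed corrected count of that list was 13.9 ± 0.87 in expanded activated sisters and 12.2 ± 1.14 in other expanded activated cells, higher in the sisters of all 10 mice, whereas Foxp3 had a count in 2.52% ± 1.52 and 6.06% ± 2.56 of the cells and was lower in the sisters of all 10 mice.

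Sostdc1 itself was among the genes higher in the activated sisters, by 0.23 ± 0.08 in all 10 mice (adjusted p = 0.000315, limma). Clones were assigned to the 2 sides by whether they held a cell of the Sostdc1 cluster, and every cell of that cluster had counts of this gene. The values for Sostdc1 are therefore a description, and its p is not read as evidence. The call was lost without mice 34 and 36 (adjusted p = 0.0126) and with cells pooled over clonotypes. At least 1 count was present in 24.8% of 3598 expanded activated sister cells and in 14.5% of 2209 other expanded activated cells, at median depths of 3495 and 3719 RNA UMIs. By mouse the shares were 26.3, 27.1, 31.2, 24.4 and 23.8% in WT and 24.7, 20.8, 26.01, 19.6 and 25.5% in 564Igi activated sisters. In the other expanded activated cells they were 11.1, 19.9, 22.99, 12.6 and 14.9% in WT and 17.8, 8.54, 20.8, 9.26 and 16.3% in 564Igi mice. The sister share was the higher in each mouse. In the other clusters the share was 9.14% ± 1.91 of TFR cells, 8.53% ± 6.99 of effector, 5.58% ± 4.09 of central memory and 19.02% ± 8.13 of interferon-stimulated TFH cells (SD over 10, 10, 8 and 8 mice), at median depths of 3461, 3471, 4027 and 3893 RNA UMIs. The last share lay above that of the other expanded activated cells. Sister clonotypes were larger, with a mean of 5.33 to 13.9 activated cells per clonotype in a mouse against 2.88 to 3.58 for the others, and within size classes of 2, 3, 4 to 5, 6 to 10 and over 10 activated cells 8 genes passed, of which 7 were among the 10, and Lag3, Srgn and Cd3e did not pass. Doublets were not called here, and the part of droplets that hold cells of both clusters was not tested.

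**Figure D5:**
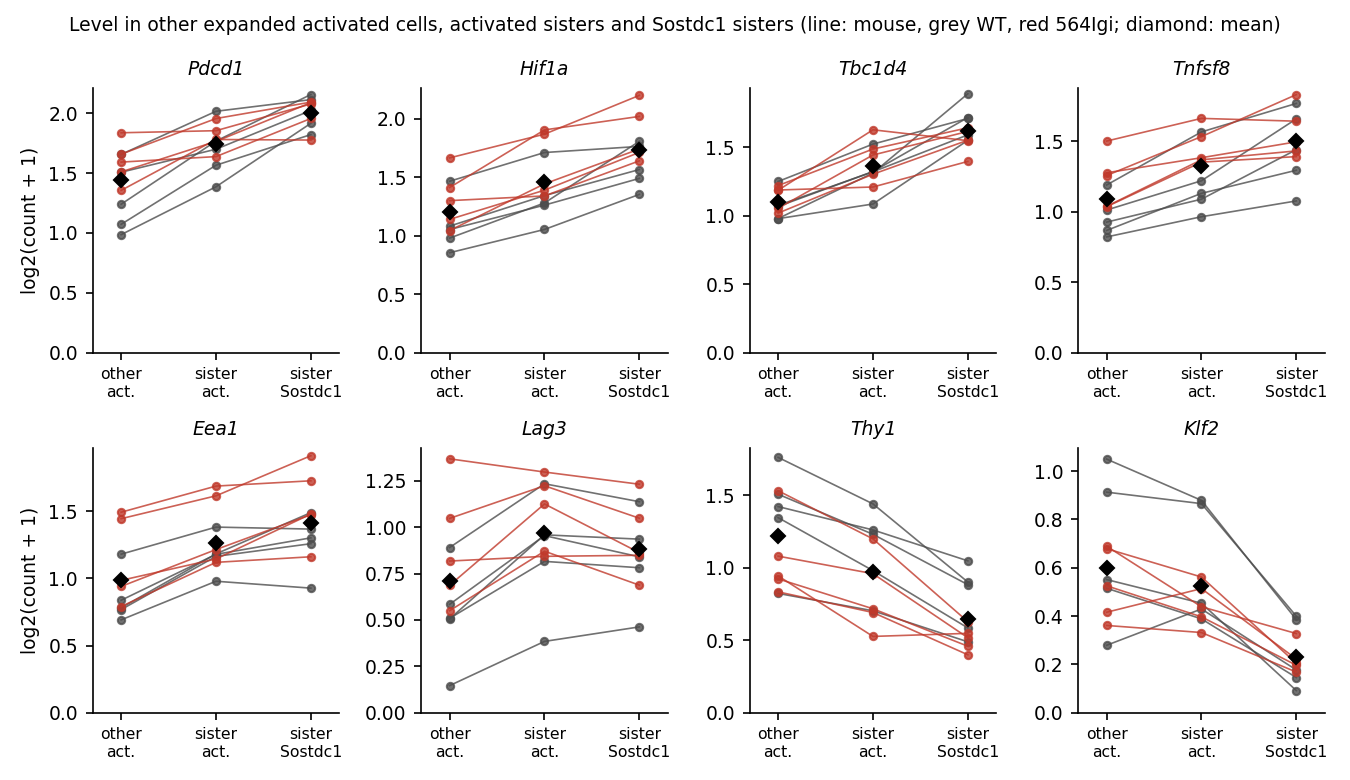
Level in log2(corrected count + 1) of 8 genes in other expanded activated cells, expanded activated sisters and Sostdc1 sisters, with 1 line per mouse and diamonds for the mean of 10 mice. Pdcd1, Hif1a, Tbc1d4, Tnfsf8 and Eea1 rise over the 3 groups and Thy1 falls, whereas Lag3 is highest in the activated sisters and Klf2 differs mainly on the Sostdc1 side.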

How the data were processed

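Droplet 5′ RNA and TCR libraries were made from each of 10 mice (5 WT, 5 564Igi). The authors used Cell Ranger 4.0.0 and Seurat 3.1.4 on GRCm38, kept cells within limits on the number of genes and UMIs, on mitochondrial and ribosomal shares and on cycling, removed TCR and immunoglobulin genes, normalized WT and 564Igi cells separately with sctransform, and clustered the cells. They deposited the natural log of the corrected count plus 1 per gene and cell, with UMI and gene counts, mitochondrial and ribosomal percent values, cell cycle and heat shock scores, and a cluster name per cell. Since each condition was corrected on its own, a level set between WT and 564Igi rests on both corrections. The deposited TCR table gives at most 2 values per field and cell, each field sorted by itself, so a UMI count could not be assigned to a chain. The tests planned for alpha and beta UMIs were therefore replaced by 1 test on the UMIs of the 2 listed chains together. Where a cell listed a single UMI value (1943 of 33833 cells with a TCR), that value was counted for both chains. The 2 chains were not always alpha and beta, as 12.2% of the 21405 cells with RNA and a TCR listed 2 alpha V segments. The scores were not used, and 0 columns of other samples were present.

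Here the values were taken back to corrected counts and expressed as log2(count + 1). Differences were averaged over cells of a clonotype, over clonotypes of a mouse and then over mice, so that the mouse was the replicate. Genes with a UMI in at least 1 percent of sister cells in at least 5 mice were kept (9792 of 13798). limma 3.58.1 in R 4.3.3 was fitted across these genes, with Benjamini-Hochberg adjustment, and a gene passed at an adjusted p below 0.01 and an absolute difference above 0.2. The variance trend was taken over mean level. For the differences between cells of a mouse this replaced limma's default, the mean difference, and that choice was made after the results of the default had been seen. Shares and TCR UMIs were compared with two-sided exact permutation tests over mice (252 assignments) or sign flips (1024), adjusted over 5 tests. The scripts were tested on simulated data. Depth was a median of 2613.5 to 4267.5 RNA UMIs per Sostdc1 sister cell in a mouse, and intervals over mice include this counting error.

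Named genes were, for the sister difference, the 10 largest in each direction among genes past the limits with 1 sign in all mice, up to 5 per direction in other comparisons (the 3 lowest p where none passed), Sostdc1, Tnfsf8, Gm42031, Ly6a, and from each list the members past the limits and up to 4 with the largest differences. The members, gene lists and tests were chosen with earlier results of these data known. Python 3.11.15 with numpy 2.4.6 and pandas 2.3.3 was used for the joins and matplotlib 3.10.9 for plots. Germline segments and positions came from the mouse genome and GENCODE annotation of GRCm38. Alternatives covered the limits, trend, filter, pseudocount, weighting of clonotypes, at least 2 cells on each side, chain matching, labelled sex and each mouse left out, and those added after seeing the data are named as such.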

Additional observations from a re-analysis of the deposited data

Results flagged for a closer look

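Of 102 groups of 5 mice examined for single values far from the rest, 3 held one, and chance gives about 1 in 20. In WT mouse 11 the sister difference of Pdcd1 was 0.55 against a median of 0.33 in WT mice, a gap of 0.80 of the range of the group. In 564Igi mouse 24 that of Itga4 was -0.48 against a median of -0.24 (0.801 of the range). In WT mouse 36 that of Gm45716 was -0.0499 against a median of 0.08 (0.71 of the range). Without WT mouse 11, WT mouse 36 or 564Igi mouse 24, 0 genes passed for 564Igi against WT in the sister difference.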

How the results depend on the processing

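Counts that follow are genes past the limits in limma. Between Sostdc1 and activated sisters 25 passed, and 220 did with an adjusted p below 0.05 and no limit on size, 117 with log2(mean count + 0.1), 14 without the filter on low genes and 2 with the trend over the mean difference. That trend is limma's default, and it became an alternative once its results had been seen and the trend over mean level was chosen. For 564Igi against WT in the sister difference 0 passed in every alternative run for it. The alternative of at least 2 cells on each side was run only between Sostdc1 and activated sisters. In Sostdc1 sisters 2 passed, and 0 did without the trend (492 genes at an unadjusted p below 0.05) or without the filter (627), and 1 with log2(mean count + 0.1), with labelled sex as a covariate, without the largest clonotype of each mouse or without mice 34 and 36. In activated sisters 1 passed, and 0 did without the trend (420) or without the filter (584). For sister against unrelated differences 13 passed, and 35 did with an adjusted p below 0.05 and no limit on size, 7 without mice 34 and 36, and 0 without the trend (806), with the trend over the mean difference (779) or without the filter (1031). For activated sisters against other expanded activated cells, added with its alternatives after seeing the data, 10 passed, and 164 did with an adjusted p below 0.05 and no limit on size, 76 with log2(mean count + 0.1), 21 with clonotypes of all sizes, 6 without the trend, 1 without the filter and 0 with the trend over the mean difference.

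With 1 mouse left out at a time, the counts ranged from 22 to 28, 0 to 0, 1 to 3, 1 to 7, 3 to 14 and 9 to 14 in that order. The 7 came without WT mouse 14, and the count for unrelated differences was 3 without WT mouse 23, 5 without WT mouse 11, 6 without 564Igi mouse 17, 7 without WT mouse 12 and 8 without WT mouse 36. The share of Sostdc1 cells with an activated sister differed by -7.23 points, and by -1.85 over clonotypes (exact permutation p = 0.508), -5.84 without the largest clonotypes (p = 0.0635) and -5.28 without mice 34 and 36 (p = 0.143), and from -8.699 to -5.595 with 1 mouse left out. With 1 mouse left out the TCR UMI difference lay between 0.14 and 0.17 and the excess of activated over TFR sisters between 23.75 and 28.55 points, the latter a comparison chosen after seeing the data, as were its alternatives. With cells pooled over clonotypes the TCR UMI difference was 0.118 (exact sign-flip p = 0.0215). With only cells of 1 alpha and 1 beta chain it was 0.142 (exact sign-flip p = 0.00977). Of the values for named genes 1617 were unchanged in call, 156 lost and 32 gained the call. Among genes past the limits in the main setting 0 reversed, and changes of direction in the other named genes were not counted. No paired analysis was possible because the replicate numbers name mice and no number is shared between WT and 564Igi. Corrected counts limit low genes, and the cause of these changes was not tested.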
